A study of Homo sapiens with 9 samples.

Results

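JH_EsoAd1 is a human cell line labelled as an adenocarcinoma of the oesophagus, and its source is labelled gastric cardia adenocarcinoma. It is 1 of 9 samples in the study, picked out by its label, and all genes of its RNA library were set against the other 8 lines: ESO-26, ESO-51, FLO-1, OACP4_C, OAC_5.1_C, OE19, OE33 and SK-GT-4. All 9 lines carry the same description, were grown untreated and were harvested as subconfluent cultures, and total RNA was sequenced. According to the series design, every line had 3 technical replicates. The counts hold 1 column per line, and differences between lines are therefore given without a test. The values describe 1 culture of JH_EsoAd1, and whether another culture of the line would give them was not measured. Fewer cells that express a gene and less RNA of it per cell cannot be told apart in such a library.

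Adenocarcinoma of the oesophagus usually arises from a glandular, columnar lining that has replaced the normal layered squamous lining near the stomach. Squamous cells are specified by transcription factors such as TP63 and SOX2 and make layered-epithelium keratins, while columnar cells rely on factors such as CDX2, the GATA and FOXA families, and make KRT8, KRT18 and mucins. Carcinoma cells can also loosen E-cadherin junctions and turn on mesenchymal genes such as the N-cadherin gene CDH2, a shift known as epithelial-mesenchymal transition.

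Levels are in CPM, counts brought to a common library total and scaled with TMM factors, which correct for a few abundant RNAs taking up much of a library. JH_EsoAd1 had 24290184 counts in the table, against 16801179 to 69881539 in the other lines. The ribosomal RNAs of mitochondria, MT-RNR1 with MT-RNR2, made up 24.7% of them in JH_EsoAd1, against 1.48% to 7.04% in the other lines. Without the TMM factor the median gene of JH_EsoAd1 would sit 0.25 lower on the log2 scale, and directions below are relative to TMM. The label of another library is in doubt: ERBB2, the receptor gene known to be amplified in OE19, was at 174 CPM in JH_EsoAd1, against 185 CPM in the OE19 library and 18325 CPM in the SK-GT-4 library. The names used here are the labels as given.

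Across 17129 genes at 1 CPM or more in at least 2 libraries, JH_EsoAd1 was most like OACP4_C and OAC_5.1_C, with a Pearson correlation of log2 levels of 0.864 to each. FLO-1 followed at 0.857 and OE19 at 0.829. ESO-26 was least like it, at 0.791. OACP4_C also had the highest median correlation with its other 8 libraries, 0.844, against 0.763 (ESO-26) to 0.821 (JH_EsoAd1) for the rest. These correlations describe the libraries, since the genes within one are not independent. By rank JH_EsoAd1 was at an extreme less often than any other line, being the highest of 9 for 1406 genes (8.21%) and the lowest for 1074 (6.27%), where each other line was highest for 9.42% to 13.2% and lowest for 7.20% to 16.1%.

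A gene was called higher where log2(CPM + 1) in JH_EsoAd1 exceeded the nearest of the other 8 lines by 2 or more, a 4-fold gap, with at least 5 CPM in JH_EsoAd1. This held for 96 of 11274 genes at that level (0.852%), of which 87 were protein-coding. The number is not particular to JH_EsoAd1: by the same rule each other line had 37 (OACP4_C) to 181 (ESO-26 and OE33) genes higher. Of the 96 genes, 73 stayed under 10 CPM in every other line and 34 under 1 CPM. The next highest line was OAC_5.1_C for 21 of them, SK-GT-4 and OE33 for 16 each, and OE19 for 5.

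CALB1, which encodes the calcium buffer calbindin known from neurons and kidney tubules, stood farthest apart. It had 809 CPM in JH_EsoAd1 (95% Poisson interval, counting error only, 797 to 822), against a lowest, median and highest of 0.178, 0.415 and 0.867 CPM in the other 8 lines. The gap to the nearest line, ESO-51, was 8.76 on the log2 scale. CALB2, which encodes the related protein calretinin, had 77.5 CPM in JH_EsoAd1, against 0.0667, 1.43 and 16.8 CPM in the other lines. Both genes were outside the range of the other 8 lines. Of 8 measured genes on the EF-hand calcium-binding list, 3 were at least 2-fold above the median, where 11.9% of all 17129 genes were. These 8 leave out CALB1 because it reached 1 CPM only in JH_EsoAd1.

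The squamous keratin gene KRT4, whose protein fills the upper layers of the normal oesophageal lining, was next among the protein-coding genes. It had 523 CPM in JH_EsoAd1, against 0, 0.134 and 7.29 CPM as lowest, median and highest of the other 8 lines, a gap of 5.98 on the log2 scale to FLO-1. Its promoter is shown because KRT4 carries the clearest squamous signal of the library: the bases before the RefSeq start site on GRCh38.p14, minus strand, chr12:52814117-52814236, with the letters TATAA in capitals.
KRT4: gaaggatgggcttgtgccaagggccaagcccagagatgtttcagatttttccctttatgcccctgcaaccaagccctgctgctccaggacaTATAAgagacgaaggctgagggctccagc
The 120 bases hold this motif once on either strand, beginning 29 bases before the start site. Among 35116 RefSeq promoters, 10.2% hold it on either strand in a window of the same length, so the match is a description and not evidence of a bound factor.

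**Figure D1:**
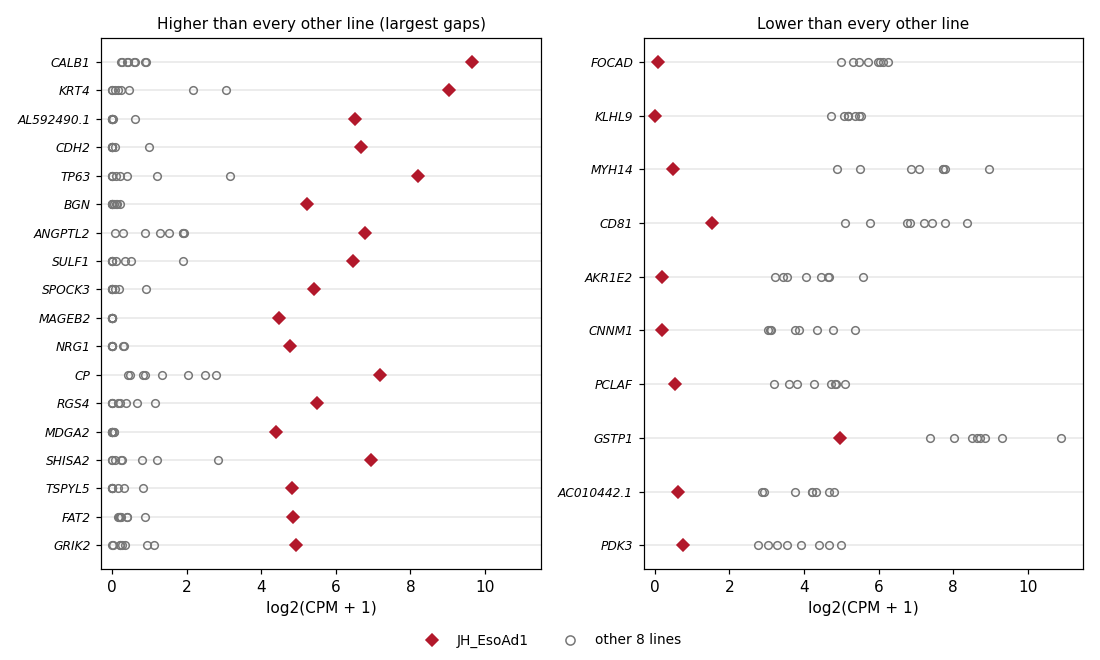
Levels of 18 of the 20 protein-coding genes with the largest gap above every other line (left) and of the 10 genes below every other line (right), as log2(CPM + 1) on the x axis. Red diamonds are JH_EsoAd1 and open circles the other 8 lines; the largest gaps are 8.76 for CALB1 and -4.92 for FOCAD.

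Most measured squamous keratins were above the other lines' median in JH_EsoAd1. Of 10 measured squamous keratins, 8 were at least 2-fold above the median of the other lines and none at least 2-fold below, and JH_EsoAd1 was the highest of 9 for 5. The summed level of all listed squamous keratins was 905 CPM in JH_EsoAd1, against 10.6 to 798 CPM in the other lines. KRT4 and KRT13, both called higher by the gap rule, gave 523 and 177 CPM of this sum, so it is not independent of that rule. Over all 17129 genes, 11.9% were at least 2-fold above the median of the other lines and 6.43% at least 2-fold below. These shares are the background for all counts of list members that follow, where above and below mean by at least 2-fold. The median difference of the squamous keratins was 2.43 on the log2 scale, against 0.01 for all genes. Without the level filter it was 1.81 over all 13 squamous keratins, against 0 for all genes. A list member measured in few libraries passes the level filter more easily where JH_EsoAd1 is high. KRT13, the partner of KRT4 in the same cell layers, had 177 CPM in JH_EsoAd1, against 0, 3.03 and 26.3 CPM in the other lines. KRT6A, a keratin of activated squamous cells, had 19.8 CPM, against 0, 0.411 and 6.63 CPM. KRT17 at 66 CPM and KRT15 at 74.1 CPM, keratins of basal cells, were above their medians of 3.15 and 10.1 CPM but inside the range of the other lines, whose highest values were 328 and 356 CPM.

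KRT5 and KRT14 were at lower levels. KRT5, the main basal keratin, had 2.83 CPM in JH_EsoAd1, against 0, 0.0894 and 1.46 CPM in the other lines, and its partner KRT14 had 8.03 CPM, against 0.0754, 2.14 and 31.8 CPM. KRT6C had 3.27 CPM, against a highest value of 2.41 CPM in the other lines, and may share reads with its near copies KRT6A and KRT6B. KRT10 was at 22.7 CPM and KRT16 at 8.18 CPM, against medians of 11 and 12.5 CPM, both within 2-fold on the log2(CPM + 1) scale. KRT6B had 7 counts, KRT78 had 4 and KRT1 had 0 (3 counts would be 0.149 CPM). Per kilobase of deposited gene length, KRT4 reached 86.1 CPM and KRT13 23.6 CPM in JH_EsoAd1. There the simple-epithelium keratins KRT19, KRT8, KRT7 and KRT18 reached 968, 109, 99.1 and 38.8 CPM. On the same scale KRT16 and KRT6B reached 112 and 25.8 CPM in their highest other line, against 2.17 and 0.152 CPM in JH_EsoAd1. The simple keratins were within the range of the other lines: KRT8 was at 1579 CPM, against 13.4, 1382 and 7808 CPM.

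TP63, the master regulator of squamous and basal epithelium, had 292 CPM in JH_EsoAd1, against 0, 0.114 and 7.95 CPM in the other lines. SOX2, which works beside it in the oesophageal lining, had 75.6 CPM, against 0, 0.633 and 8.3 CPM. Both lay beyond all other lines by more than the 4-fold gap, and so did SOX21 at 54 CPM and SOX15 at 7.93 CPM, 2 related factors named after their values were seen. JAG1, a Notch ligand, was the highest of 9 at 606 CPM, against 7.15, 35.7 and 278 CPM, and PAX9, a factor of the foregut lining, at 57.2 CPM, against 0.113, 6.01 and 29.4 CPM.

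Of 16 measured squamous regulators 7 were at least 2-fold above the median of the other lines and 2 below it, with a list median of 0.79. TP73, a relative of TP63, was at 12.5 CPM, against a median of 3.49 CPM. The limb and foregut factor PITX1 was at 68.1 CPM, against a median of 27.7 CPM, and the receptor NOTCH3 at 123 CPM, against 39.3 CPM. All 3 were inside the range of the other lines. NOTCH1, TFAP2A, JAG2, KLF4, GRHL3 and ZNF750 were within 2-fold of the median, and BNC1 was at 0.644 CPM. The low members were OVOL1, a factor that holds cells in an epithelial state, with 2 counts against a median of 11.8 CPM, and TFAP2C, with 1 count against a median of 10.7 CPM. Both were also near 0 in at least 1 other line.

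Terminal squamous differentiation was patchy. The cornified-envelope list had 5 of 10 measured members at least 2-fold above the median of the other lines and 1 below. Only these 10 of its 25 genes passed the level filter, and its median difference was 0.55 with the filter and 0 without it. SCEL, the sciellin gene, had 182 CPM in JH_EsoAd1, against 0.0754, 11 and 241 CPM in the other lines. The envelope genes IVL, SPRR3 and SPRR1B had 0 counts in JH_EsoAd1. Their levels in the other lines are not given here, so this sets JH_EsoAd1 apart from no other line. EVPL, which encodes envoplakin, was at 34.9 CPM, against a median of 74.2 CPM. DSG3, the desmosomal cadherin of squamous cells, was at 7.19 CPM, against 0, 0.315 and 6.83 CPM, and 3 of 11 desmosome genes were below the median while 2 were above.

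Some genes that anchor basal cells to the basement membrane were above the median. In the hemidesmosome list 5 of 11 members were at least 2-fold above the median of the other lines and none below. COL7A1, which encodes the anchoring fibril collagen, had 520.5 CPM in JH_EsoAd1, against 3.02, 8.38 and 142 CPM in the other lines. COL17A1, a hemidesmosome collagen, had 294 CPM, against 0.346, 23.5 and 269.9 CPM. JH_EsoAd1 was the highest line for both, by 1.87 and 0.12 on the log2 scale. Integrins, a family that includes receptors for that membrane, had 6 of 11 members above and none below. The leading integrins were ITGA3 at 2231 CPM, against 13.7, 444 and 1110.1 CPM, and ITGB6 at 131 CPM, against 0.113, 28.9 and 91.8 CPM.

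**Figure D2:**
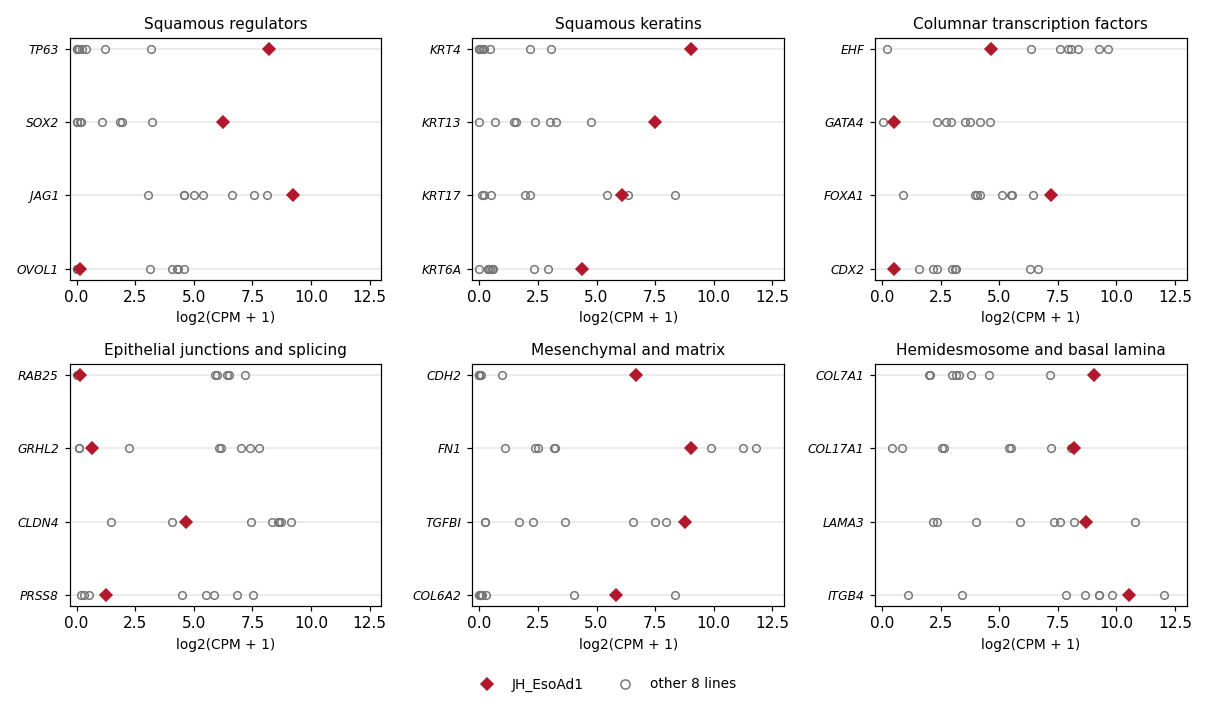
Up to 4 members of each of 6 lists with the largest absolute difference from the median of the other 8 lines, as log2(CPM + 1). Red diamonds are JH_EsoAd1 and open circles the other 8 lines; JH_EsoAd1 is beyond every other line for TP63, SOX2, JAG1, KRT4, KRT13, KRT6A, CDH2, TGFBI, COL7A1, COL17A1 and FOXA1 on the high side and for CDX2 on the low side.

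Columnar identity was mixed, not absent. FOXA1, a factor that opens chromatin in glandular cells, had its highest level in JH_EsoAd1, 149 CPM, against 0.867, 25.2 and 84.7 CPM in the other lines. CDX2, the intestinal master regulator, was lowest there with 9 counts (0.446 CPM), against 2.02, 7.28 and 99.9 CPM. EHF, an ETS factor of glandular epithelium, was at 24 CPM, against 0.151, 256 and 790.3 CPM, and GATA4 at 0.446 CPM, against 0.0356, 8.68 and 23.2 CPM. Of 18 measured columnar factors 4 were at least 2-fold above the median and 7 below, with a list median of -0.47.

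Differentiation markers gave no single columnar type. Of 18 measured intestinal genes 2 were at least 2-fold above and 2 below, near the shares over all genes, 11.9% and 6.43%. CEACAM5 was at 86.5 CPM, against 0, 11.6 and 284 CPM, and the mucin gene MUC13 at 0.843 CPM, against 0.0377, 43.9 and 336 CPM. The median of MUC13 rests on a gap in the middle of the other lines, and its difference runs between -5.58 and 0.33 as single lines are left out. Of 13 measured gastric genes 6 were above and 1 below. MUC5AC, the mucin of the stomach surface, was at 63.4 CPM, against 0.0754, 0.259 and 1542 CPM. AGR2, which folds mucins, was at 1290.4 CPM, against 0.679, 254 and 5194 CPM. MUC16, the source of the CA125 antigen, had 433 CPM, against 0.0222, 2.56 and 458 CPM, and CEACAM6 had 424 CPM, against 0.288, 40.1 and 953 CPM. JH_EsoAd1 was the second highest line for both antigens.

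CDH2, the N-cadherin gene, separated JH_EsoAd1 from every other line, with 101 CPM against 0, 0 and 0.967 CPM. Of 7 other measured cadherins 3 were at least 2-fold above the median and 1 below, with a median of -0.05. CDH6 had 198 CPM, against 0, 0.00863 and 51.3 CPM, and CDH3, the P-cadherin gene of basal epithelium, had 248 CPM, against 0.404, 85 and 479 CPM. CDH1, the E-cadherin gene, was still at 128 CPM, against 0.173, 302 and 546 CPM. All 4 cadherins were thus transcribed in the same culture.

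Epithelial junction and splicing genes formed the list with the lowest median difference, -1.15 over 26 members, of which 14 were at least 2-fold below the median of the other lines and 1 above. RAB25, a trafficking GTPase of polarised epithelium, had 2 counts in JH_EsoAd1 (0.0991 CPM), against 0, 60.7 and 146 CPM in the other lines. GRHL2, a transcription factor that keeps junction genes on, had 12 counts (0.595 CPM), against 0.0713, 68.3 and 218 CPM. CLDN4, a tight-junction claudin, was at 24.5 CPM, against 1.79, 353 and 571 CPM, and the membrane protease PRSS8 at 1.39 CPM, against 0.151, 33.4 and 181 CPM. For all 4 at least 1 other line was lower still, and JH_EsoAd1 was the lowest of 9 for 1 of the 26 members.

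Mesenchymal and matrix genes were mostly above the median. Of 24 measured members 15 were at least 2-fold above the median of the other lines and 2 below, with a median of 1.65, and CDH2 is not counted because it reached 1 CPM only in JH_EsoAd1. FN1, which encodes fibronectin, was at 521 CPM, against 1.14, 8.28 and 3591 CPM, and TGFBI at 433 CPM, against 0.173, 7.79 and 245 CPM. COL6A2 was at 55.6 CPM, against 0, 0.0665 and 321 CPM. VIM, the vimentin gene and usual marker of mesenchymal cells, was at 22 CPM, against 0.0322, 2.82 and 1679 CPM. It was thus above the median as well, but far below the highest line. Of 7 measured transition factors 4 were above the median and none below, with a median of 1.21, and JH_EsoAd1 was the highest of 9 for 2. SNAI2, a repressor of E-cadherin, was the 1 past the 4-fold gap, at 24 CPM, against 0, 1.7 and 4.81 CPM. ZEB1 was at 9.86 CPM, against 0.0965, 3.5 and 85.7 CPM.

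Markers of stromal cells were read for the same reason. The fibroblast list summed to 97.1 CPM in JH_EsoAd1, against 3.85 to 1562 CPM in the other lines, with 3 of its 10 genes at 1 CPM or more: COL1A1 at 46.5, COL1A2 at 40.6 and ACTA2 at 8.33 CPM. Its defining members DCN and PDGFRA had 0 counts. The endothelial list summed to 58.5 CPM, above the 0.923 to 24.2 CPM of the other lines, from CDH5 at 29.8 and ESAM at 26 CPM, while ERG had 0 counts and VWF 7. The haematopoietic list summed to 24.1 CPM, against 6.97 to 2094 CPM, and 5 of its 15 genes had 0 counts in JH_EsoAd1. Its 2 genes at 1 CPM or more there were CORO1A and CD14. CORO1A was at 15.8 CPM, above every other line, against 0.285, 2.03 and 7.33 CPM. CD14 was at 6.10 CPM, inside the range of the other lines, against 0.144, 0.727 and 25.4 CPM.

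Several secreted and growth-control genes marked the library. NRG1, which encodes the ligand neuregulin of ERBB3 and ERBB4, had 26.1 CPM in JH_EsoAd1, against 0, 0 and 0.247 CPM. EREG, the EGFR ligand epiregulin, had 289 CPM, against 0.115, 14.8 and 593 CPM. TGFB1 was the highest of 9 at 177 CPM, against 1.56, 23.3 and 75.8 CPM, and so was LTBP1, which holds its product in the matrix, at 188 CPM, against 5.11, 19.3 and 157 CPM. In the YAP target list 10 of 18 members were above the median and 2 below, and in the TGF-beta list 6 of 15 were above and 1 below. DKK1, a secreted Wnt inhibitor, was at 339.5 CPM, against 0.0667, 9.19 and 287 CPM, and RNF43, which removes Wnt receptors, had 2 counts, against 0.577, 8.62 and 162 CPM. Retinoic acid genes had 8 of 15 members above the median and 1 below, led by the synthesising enzyme gene ALDH1A3 at 1055 CPM, against 3.81, 23.6 and 1464 CPM.

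Other genes beyond every line came from several tissues' programmes. BGN, the matrix proteoglycan biglycan, had 36.2 CPM, against a highest of 0.161 CPM in the other lines. MAGEB2, a cancer-testis antigen on chromosome X, had 430 counts (21.3 CPM) in JH_EsoAd1 and 0 in all 8 others, at least 123-fold above the level that 3 counts would give in the shallowest of them. The related MAGEA3 at 50.3 CPM and MAGEA6 at 47.1 CPM are near-identical copies and were higher still in SK-GT-4, at 124 and 105 CPM. The remaining leaders included the angiopoietin-like gene ANGPTL2 at 109.6 CPM, the sulfatase gene SULF1 at 87.7 CPM, the testican gene SPOCK3 at 41.9 CPM and CP, which encodes the copper protein ceruloplasmin, at 144 CPM. Their highest values elsewhere were 2.8, 2.71, 0.865 and 5.85 CPM.

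The last of the 20 leading protein-coding genes were AL592490.1 at 90.9 CPM, RGS4 at 44.3, MDGA2 at 20.2, SHISA2 at 122, TSPYL5 at 27.2, FAT2 at 27.9 and GRIK2 at 29.3 CPM. RGS4 damps G-protein signalling, MDGA2 is a synaptic adhesion gene, FAT2 a giant cadherin of squamous epithelium and GRIK2 a glutamate receptor gene. No other line exceeded 6.14 CPM for any of these 7. Among called genes at high absolute level, chosen after their values were seen, were CD109, a surface protein of basal epithelium, at 2219 CPM, against 1.36, 25.1 and 237 CPM, the imprinted RNA gene H19 at 1194 CPM, against 0.378, 4.56 and 128 CPM, and PODXL, the podocalyxin gene, at 914 CPM, against 20.5, 54.5 and 222 CPM. FLNC, a filamin of muscle, had 643 CPM, against 0, 1.94 and 68.6 CPM.

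Genes below every other line by the same 4-fold gap were fewer, 10 of 7979 with at least 5 CPM in the lowest other line (0.125%). By the same rule each other line had 11 (OAC_5.1_C) to 175 (ESO-26) genes lower. FOCAD, a tumour suppressor candidate on chromosome 9, had 1 count in JH_EsoAd1, against 30.8, 57 and 75.3 CPM. KLHL9, a ubiquitin ligase adaptor gene beside it, had 0 counts, against 25.2, 35.4 and 45.1 CPM, at least 169.6-fold below the lowest other line at 3 counts. MYH14, which encodes a non-muscle myosin of epithelial junctions, had 8 counts (0.397 CPM), against 28.4, 173 and 498 CPM. CD81, a tetraspanin found on nearly all cells, had 38 counts (1.88 CPM), against 33.3, 132 and 329 CPM. These 4 genes were at 25.2 CPM or more in all 8 other lines and under 2 CPM in JH_EsoAd1.

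GSTP1, the glutathione transferase that conjugates drugs and reactive molecules, was the abundant member of that group, at 30.5 CPM in JH_EsoAd1, against 165, 407 and 1902 CPM. PCLAF, a partner of the replication clamp, was at 0.446 CPM, against 8.13, 21.9 and 33.6 CPM, and the kinase gene PDK3, which restrains pyruvate entry into mitochondria, at 0.694 CPM, against 5.82, 12.4 and 31.1 CPM. AKR1E2 and CNNM1 had 3 counts each, and the ratios of the lowest other line to JH_EsoAd1 were 55.9 (19.1 to 271) and 48.6 (16.6 to 236). AC010442.1 is uncertain, since its count in JH_EsoAd1 is 11 in the table and 2 in the deposited file of the line, where the gene no longer stood below the other lines.

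**Figure D3:**
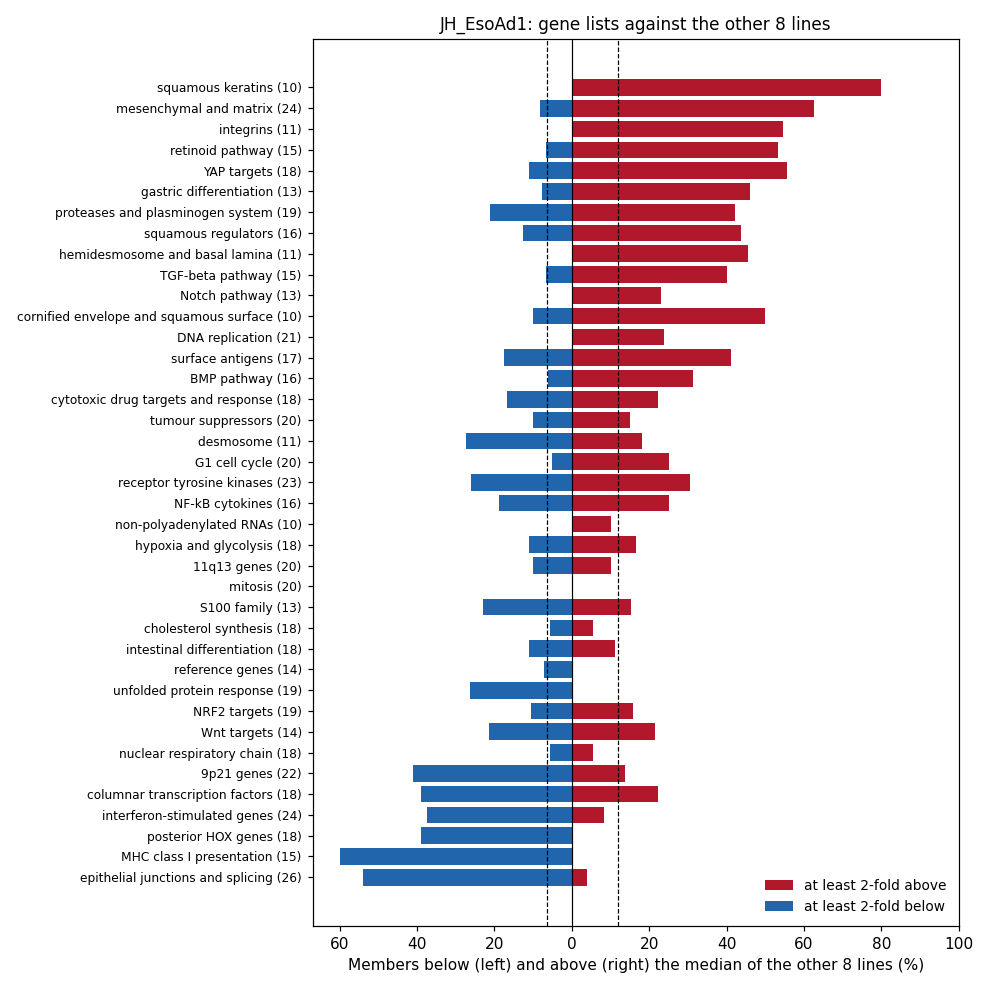
Share of the measured members that, in lists with 10 or more of them, lay at least 2-fold below (blue, left) or above (red, right) the median of the other 8 lines in JH_EsoAd1, ordered by median difference, with the number of members in brackets. Dashed lines mark the same shares over all genes, 6.43% and 11.9%; squamous keratins stand at the top and epithelial junctions at the bottom.

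Of 20 measured genes of the G1 phase 5 were at least 2-fold above the median of the other lines and 1 below, with a median of 0.19. CCND1, the cyclin D1 gene, had 1285 CPM in JH_EsoAd1, against 39.4, 313 and 827 CPM. Its neighbours at 11q13 did not share this: of 20 measured genes of the region 2 were above the median and 2 below, with a median of -0.02, and CCND1 was the only one that was highest of 9. FADD was at 9.96 CPM, against a median of 7.5 CPM, CTTN at 337 CPM, against 298 CPM, and ANO1 at 3.97 CPM, against 18.4 CPM. CCNE2 at 29.1 CPM and CDK2 at 93.7 CPM, which drive entry into S phase, were also highest of 9, against highest values of 21.3 and 67.8 CPM elsewhere. So was the inhibitor CDKN1A, the p21 gene that arrests the cycle, at 193 CPM, against 0.923, 54.5 and 147 CPM. Of 21 DNA replication genes 5 were above the median and none below, MCM4 leading at 473 CPM, against 70.7, 187 and 266 CPM. None of 20 mitosis genes differed 2-fold in either direction.

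Antigen presentation genes were mostly below the median. Of 15 MHC class I genes 9 were at least 2-fold below the median of the other lines and none above, with a median of -1.09. HLA-C was the lowest of 9 at 78.4 CPM, against 146, 413 and 1420.0 CPM, and HLA-B was at 52.3 CPM, against 18.2, 306 and 1371 CPM. TAP1, the peptide transporter, was at 19.2 CPM, against 5.85, 74.3 and 153 CPM. HLA genes have alleles that map unequally to 1 reference, so their levels across lines are uncertain. Interferon-stimulated genes had 9 of 24 members below and 2 above, with BST2 at 0.595 CPM, against 0, 29.7 and 88 CPM, and IFI27 at 1.93 CPM, against 0.257, 68.9 and 665 CPM, while IFI44L at 23.7 CPM was above its median of 1.66 CPM.

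TRIB3, a stress-induced pseudokinase gene, had 47 counts (2.33 CPM) in JH_EsoAd1, against 12.1, 251 and 467 CPM, and missed the 4-fold gap narrowly at -1.98. ASNS, the asparagine synthetase gene, was at 67.1 CPM, against 62, 308 and 468 CPM, and the stress factor gene ATF3 at 4.61 CPM, against 5.11, 17.2 and 39.8 CPM. The unfolded protein response list had 5 of 19 members below the median and none above, the other 14 were within 2-fold, and its median was -0.18. Posterior HOX genes, which mark hindgut and trunk position, had 7 of 18 members below and none above. HOXC10 had 0 counts, against 0.778, 13.5 and 27.8 CPM, and HOXA10 was at 0.843 CPM, against 0.346, 9.45 and 17.6 CPM.

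Of 18 measured genes of cytotoxic drug handling 4 were at least 2-fold above the median of the other lines and 3 below. DPYD, whose product degrades fluorouracil, had its highest level in JH_EsoAd1 at 134 CPM, against 0.4, 7.74 and 101 CPM. ABCC1, an efflux pump gene, was level with the next line at 271 CPM, against 52.9, 73.2 and 266 CPM. The low members included GSTP1, described above, and TYMP, which encodes thymidine phosphorylase, at 4.26 CPM, against 2.08, 15.6 and 69.5 CPM. MSH6, a mismatch repair gene, was highest of 9 at 229 CPM, against 84.7, 113 and 183 CPM.

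**Figure D4:**
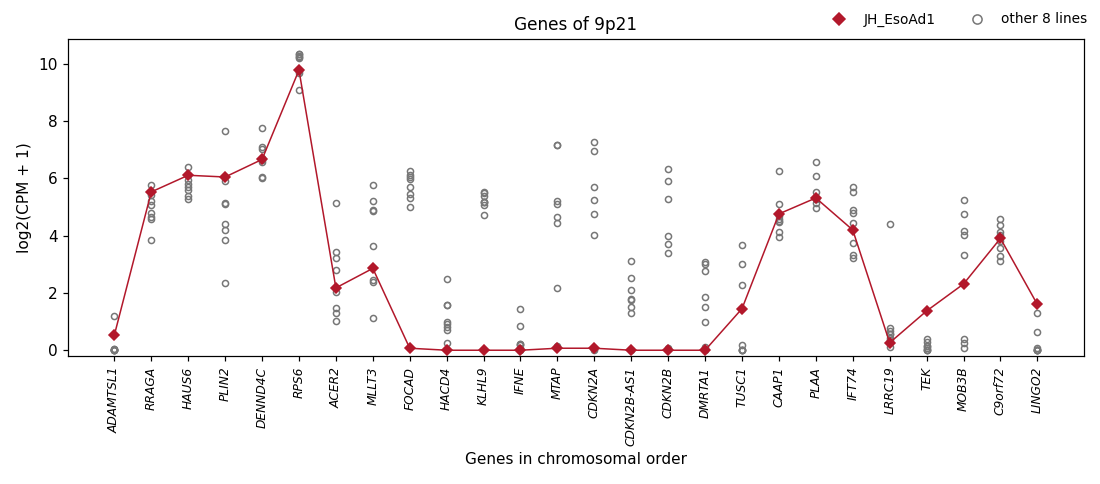
Levels along 9p21, as log2(CPM + 1), for listed genes that reach 1 CPM in at least 1 library, in chromosomal order. Red diamonds joined by a line are JH_EsoAd1 and open circles the other 8 lines; the red line lies at 0 to 1 count per gene, FOCAD through DMRTA1, and the genes on either side, MLLT3 and TUSC1, lie within the range of the other lines.

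Both genes that led the low group, FOCAD and KLHL9, are neighbours of the tumour suppressor CDKN2A at 9p21, a region often deleted in cancer. In the order of the listed genes, 14 neighbours, FOCAD through ELAVL2, had 0 or 1 count each in JH_EsoAd1, 3 counts in all. The same 14 genes summed to 3126 to 25400 counts in the other lines, that is 0.149 CPM in JH_EsoAd1, against 77 to 444 CPM. Of the 14 genes 7 had a median of 1 CPM or more in the other lines, so the silence of the interferon genes IFNB1, IFNW1, IFNA1, IFNA2 and IFNE, which are off nearly everywhere, is uninformative. MTAP, a methionine salvage gene, had 1 count, against 0.103, 28.5 and 143 CPM, CDKN2A 1 count, against 0, 31.3 and 154 CPM, and CDKN2B 0 counts, against 0.0206, 13.6 and 79.2 CPM. HACD4, CDKN2B-AS1 and DMRTA1 had 0 counts too, against medians of 0.923, 2.42 and 2.25 CPM.

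Genes on both sides of the stretch were expressed. On the telomeric side, MLLT3, a subunit of elongation complexes, was at 6.25 CPM (126 counts), against 1.19, 19.7 and 53.1 CPM, and PLIN2, a lipid droplet gene, at 65.1 CPM, against a median of 27 CPM. On the other side TUSC1 was at 1.73 CPM, CAAP1 at 26.1 CPM, against a median of 22.4 CPM, and PLAA at 38.8 CPM, against 38.4 CPM. OAC_5.1_C, where CDKN2A was silent as well, kept 2096 counts of FOCAD and 1586 of KLHL9, and FLO-1, with 3 counts of CDKN2A, kept 5129 and 1892. DNA copy number was not analysed here.

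A block of chromosome 14 held the longest run of genes above the median. The order of genes was taken from GENCODE 29, over 10656 genes with a median of 5 CPM or more in the other lines. In that order 21 consecutive genes, EGLN3 through PNN, all lay at least 2-fold above the median of the other 8 lines and all had their highest level in JH_EsoAd1. Their median difference was 1.80 on the log2 scale, from 1.01 (TRAPPC6B) to 3.37 (EGLN3). The next longest run above the median anywhere held 6 genes, on chromosome 7. By median over windows of 25 neighbouring genes, 23 of 10104 windows were 2-fold above (0.228%), and all 23 lay here.

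EGLN3, an oxygen-sensing hydroxylase gene, had 162 CPM in JH_EsoAd1, against 1.56, 15.5 and 64.7 CPM, and CFL2, an actin-severing cofilin gene, 183 CPM, against 4.5, 23.2 and 68.8 CPM. BAZ1A, a chromatin remodeller, was at 387 CPM, against 41.7, 100.4 and 151 CPM, and NFKBIA, the inhibitor of NF-kB, at 178 CPM, against 32.8, 52.1 and 91.3 CPM. BRMS1L, a corepressor subunit, was at 65.3 CPM, against 3.42, 11 and 18.3 CPM, the largest step beyond the next line in the run, 1.78. FOXA1 and PAX9, described above with the columnar and squamous factors, are both members of this run. The others were SPTSSA, EAPP, SNX6, SRP54, FAM177A1, PPP2R3C, PSMA6, RALGAPA1, MBIP, MIPOL1, SEC23A, GEMIN2, TRAPPC6B and PNN, with levels of 13.4 CPM (PSMA6) to 492 CPM (SEC23A). No single gene of the run reached the 4-fold gap to the nearest line.

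Over the span 11 further genes passed the level filter but were too low elsewhere to enter that order. Of these 5 were at least 2-fold above the median, none 2-fold below and 7 highest of 9, while the pseudogene RPL12P6 was the lowest of 9 at 2.58 CPM, against 3.21, 4.8 and 6.34 CPM. SLC25A21, a mitochondrial carrier gene, at 15.7 CPM, and TTC6, next to FOXA1, at 31.3 CPM were past the 4-fold gap, against highest values of 2.18 and 4.93 CPM elsewhere. Not all genes of the span were high: the lung and thyroid factor NKX2-1 had 0 counts and NKX2-8 had 2. On the proximal side ARHGAP5 was 0.99 above the median and NUBPL 0.89, and on the distal side FBXO33 was 0.89 above and KLHL28 0.73 below. In each other line the same 21 genes had a median difference of -0.66 (SK-GT-4) to 0.49 (OAC_5.1_C), with at most 3 genes 2-fold above.

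**Figure D5:**
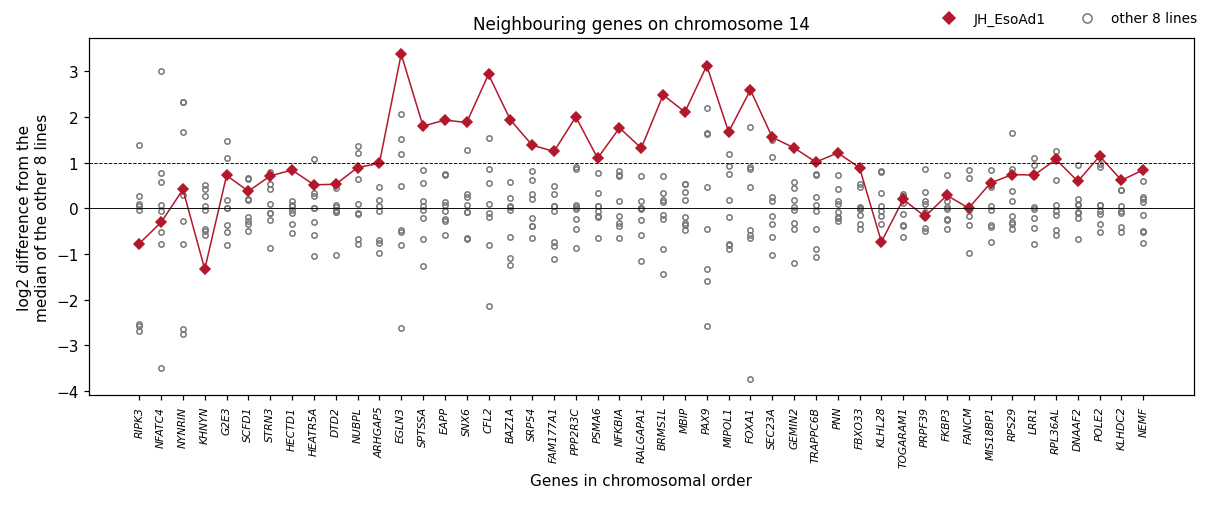
Difference of log2(CPM + 1) from the median of the other 8 lines for 47 neighbouring genes of chromosome 14, in chromosomal order. Red diamonds joined by a line are JH_EsoAd1, open circles the other 8 lines and the dashed line a 2-fold difference; the red points from EGLN3 through PNN lie at 1.01 to 3.37, each above all circles of its gene.

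Chromosome X was low as a whole. Its 347 ordered genes had a median difference of -0.53 in JH_EsoAd1, against -0.10 to 0.31 in the other lines. The 13 windows at least 2-fold below the median (0.129%) all lay at its far end, NSDHL through VAMP7, where 23 of 37 genes were at least 2-fold below and 20 were the lowest of 9. SSR4, a subunit of the translocon, was at 38.9 CPM, against 57.9, 141 and 248 CPM, and the signalling kinase gene IRAK1 at 107 CPM, against 136, 281 and 548 CPM. Counted over all chromosomes, JH_EsoAd1 had fewer such windows than any other line, which had 27 to 234 above and 31 to 222 below. No run of 3 or more neighbours lay 2-fold beyond the nearest line in either direction.

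The make-up of the library was unusual and bears on how levels are read. The deposited file of JH_EsoAd1 held 107130303 counts over all identifiers, of which 77.3% were outside the named table, against 25.8% to 51.0% in the other lines. A pair of identifiers without a name in the sources used here took 48.3% and 26.5% of its counts, against 12.4% to 35.2% and 3.91% to 14.1% in the other lines. MT-RNR1 was at 116477 CPM, against 4732, 9894 and 24339 CPM, and MT-RNR2 at 181119 CPM, against 9609, 18146 and 39836 CPM. The called genes MTRNR2L2 and MTRNR2L8 are nuclear copies of MT-RNR2 and cannot be told apart from it here.

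Mitochondrial messenger RNA, read from the files of the lines on the same scale, was mostly above the median as well, by less than the ribosomal RNA. Its sum was inside the range of the other lines, at 3752 CPM in JH_EsoAd1, against 1368 CPM (OAC_5.1_C) to 4889 CPM (FLO-1). Of 13 protein-coding mitochondrial genes 8 were at least 2-fold above the median of the other lines and none below, with a median difference of 1.34 and a range of 0.27 (MT-CO1) to 2.21 (MT-ND6). For every 100 counts of mitochondrial ribosomal RNA JH_EsoAd1 had 1.26 counts of messenger, against 4.46 to 14.1 in the other lines. Nuclear genes of the respiratory chain had 1 of 18 members above the median and 1 below, with a median of -0.34. Whether the larger share of ribosomal RNA moves any result above was not tested, beyond the scaling alternatives. With mitochondrial genes removed before scaling, 94 of the 96 higher genes and all 10 lower genes were called again. The remaining higher genes, MT-RNR1 and MT-RNR2, were among those removed and could not be called. Over genes split by deposited length into equal groups, the median difference of JH_EsoAd1 was -0.02 for short, 0.00 for middle and 0.06 for long genes. The other lines ran from -0.06 to 0.06, from -0.05 to 0.07 and from -0.07 to 0.04. For long genes JH_EsoAd1 was thus above every other line, by a small amount.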

How the data were processed

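The genome build was GRCh37 and the tools named are FastQC 0.11.7, R 3.6.1 and STAR 2.6.1d, per the submitters' processing notes; the counting program, annotation release and strand setting are not given in the sources used here, so overlapping and antisense genes cannot be told apart. Raw counts of 52158 genes, 1 column for each of 9 lines, come from the deposited table, whose values are whole numbers; a row with a blank name (0.00485% to 0.00965% of counts) was dropped. For every line the authors also deposited a file with counts and FPKM of 57905 identifiers, per the file headers. Of 49558 genes in both, 48294 had equal counts in all 9 lines.

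Counts were scaled by TMM (edgeR 4.0.16, R 4.3.3; factor 0.831 for JH_EsoAd1) over genes at 1 CPM in at least 2 libraries and used as log2(CPM + 1). A measured list member is one at that level. With 1 library per line only values, differences and exact Poisson 95% intervals are given, and intervals and the floor of 3 counts cover counting error only; depth was 16801179 to 69881539 counts. Of 904 list symbols, 881 matched the table, 15 through older symbols. GENCODE 29 and RefSeq, both on another build, gave names, biotypes, order and the promoter. Genes named are the 20 protein-coding genes with the largest gap, all genes lower, up to 4 members per list with the largest difference at 5 CPM, all squamous, 9p21, 11q13 and mitochondrial genes, and list markers at 0. Some genes under this rule are not reported here. Others, and the chromosome 14 run, were chosen after their values were seen. The lists and the comparison were chosen with earlier results of these data known. The procedure was tested on simulated data. Alternatives were DESeq2 1.42.0 size factors, library size, TMM without mitochondrial genes, other pseudocounts and filters, deposited FPKM, thinning and leaving out lines. Python 3.11.15, numpy 2.4.6, pandas 2.3.3, scipy 1.17.1 and matplotlib 3.10.9 were used.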

Additional observations from a re-analysis of the deposited data

How the results depend on the processing

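No paired analysis was possible because each line has 1 library and nothing was tested. Of 96 genes called higher and 10 lower, 96 and 10 were called again with DESeq2 size factors, 67 and 10 with library size alone, and 95 and 9 after thinning all libraries to the smallest total. Leaving out each other line in turn gave 99 to 126 higher and 10 to 15 lower genes. These calls rest on the nearest other line, so leaving out a line can only keep or add them, and their number is no check. The same omissions gave 2009 to 2143 genes 2-fold above the median and 1103 to 1237 below (main 2035 and 1102). They gave 14 to 15 of the squamous regulators and keratins above (main 15), and 20 to 21 of 21 genes of the chromosome 14 run. Of all list members 175 to 198 were above and 101 to 123 below (main 187 and 115). With library size alone 1819 genes were below the median, and the longest run above it held 9 genes, still on chromosome 14; with a threshold of 2 the longest run held 4 genes, on chromosome 7. A pseudocount of 5 CPM gave 53 higher, 5 lower, 1167 above and 582 below, and 76 list members below. A minimum of 10 CPM gave 5 lower, 1297 above and 8 squamous members above. Without both ESO-26 and OE33 29 genes were lower, an omission that again can only keep or add calls. A 2-fold gap gave 230 higher and 28 lower genes, and a 4-fold difference 750 above and 222 below. Deposited FPKM brought to equal sums gave 13 higher, 2 lower, 301 above, 1774 below, 5 squamous members and 55 list members above, and 7 of the 21 run genes; this scaling counts the mitochondrial ribosomal RNA and set the median gene of JH_EsoAd1 at -0.86 before any pseudocount. FPKM scaled by median ratio, added after seeing the data, set it at -0.01 and gave 28 higher, 1 lower, 695 above, 297 below, 8 squamous members, 107 list members above and 47 below, and 16 run genes, with a pseudocount of 1 FPKM weighing more than 1 CPM. AC010442.1 turned to 0.013 (gap 0.058) and 0.052 (gap 0.093) under these FPKM settings, S100P to -0.45 without ESO-26 and OE33, and MUC13 (main -2.63) to 0.33 without OE19, FLO-1, SK-GT-4 or ESO-51 and to -5.58 without any other line; the mean of the cadherin list was 1.74 where its median was -0.05. The causes were not tested. The highest correlation stayed with OACP4_C except under library size (OAC_5.1_C, 0.866).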
